A study of Mus musculus with 18 samples.

Results

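The genes described here are 9 integrin subunits, Itgae, Itgal, Itga4, Itgav, Itgb1, Itgb2, Itgb3, Itgb7 and Itgb8, and the adhesion ligand Icam1. They were chosen by name and are 10 of the 23420 genes in the deposited count table. All 10 passed the filter on low counts that kept 10630 genes. RNA was sequenced from sorted regulatory T cells (Treg) of mice, the CD4 T cells that restrain immune responses, labelled as effector or resting. The genotypes are FCre x C1fl/fl, FCre x C1fl/+ and FCre x C1+/+, written here as fl/fl, fl/+ and +/+, and each of the 6 groups of genotype and state holds 3 libraries. All 3 genotypes carry FCre, so fl/fl and fl/+ cells differ from +/+ cells by the C1 allele. The sources used here do not state the cells in which FCre acts, the tissue, the sorting gates, or the age and sex of the mice. The labels number the 3 libraries of a group as batches and do not say that they are separate animals, so p-values measure the spread between these libraries. The title of the study names the CBM signalosome, which carries signals of the antigen receptor to the transcription factor NF-kB.

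An integrin is a cell surface receptor built from an alpha and a beta subunit, and the pair decides what it binds. In T cells, alpha L with beta 2 forms LFA-1, the receptor for Icam1 that holds a T cell to the cell it reads. Alpha 4 pairs with beta 1 or beta 7 and serves entry into tissues through Vcam1 and Madcam1. Alpha E pairs only with beta 7 and binds E-cadherin of epithelia, and it is known as CD103 on tissue Treg. Alpha v with beta 8 releases active TGF-beta from its latent form, a function described in effector Treg of mice, and alpha v with beta 3 binds vitronectin and other matrix proteins. These are statements on proteins, whereas the libraries measure RNA.

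Promoter windows from 250 bases before to 50 after the start, from RefSeq on GRCm38.p6, were in the reference table for 6 of the 10 genes, namely Itga4, Itgav, Itgb1, Itgb7, Itgb8 and Icam1. Icam1 is shown because it is a well known NF-kB target, and Itgb8 because it rose between states in all 3 genotypes. The Icam1 window is chr9:21015690-21015989 on the plus strand and the Itgb8 window chr12:119238227-119238526 on the minus strand. Capitals mark the letters GGAAATTCC and TATAAA.
Icam1: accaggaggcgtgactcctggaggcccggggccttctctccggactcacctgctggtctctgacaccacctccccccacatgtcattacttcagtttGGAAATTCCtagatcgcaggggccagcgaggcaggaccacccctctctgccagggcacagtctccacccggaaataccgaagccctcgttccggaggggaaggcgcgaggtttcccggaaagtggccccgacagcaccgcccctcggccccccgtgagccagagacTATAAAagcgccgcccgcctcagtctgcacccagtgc
Itgb8: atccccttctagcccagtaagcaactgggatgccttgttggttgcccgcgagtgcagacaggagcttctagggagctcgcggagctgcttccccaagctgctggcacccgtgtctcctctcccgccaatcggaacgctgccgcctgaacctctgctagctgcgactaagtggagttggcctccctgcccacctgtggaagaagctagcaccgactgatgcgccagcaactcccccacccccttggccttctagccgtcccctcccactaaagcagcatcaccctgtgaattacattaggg
The 10-letter kappaB consensus, searched by that name on both strands, was in 0 of the 6 windows, and 4.51% of 32851 promoters in the table hold it. The letters GGAAATTCC, a known NF-kB site of 9 letters that was searched, like TATAAA and TGANTCA, after values had been seen, were in the Icam1 window alone of the 6, with their first base 153 bases before the start, and 0.317% of all promoters hold them. TATAAA was found in the Icam1 window at base 14, counted from the annotated start as 1 (13.6% of all promoters), and TGANTCA, an AP-1 motif, in none of the 6 (7.81% of all). The Itgb8 window held none of these letters. A match describes the window and shows no binding.

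Each library held 1658073 to 5756903 expected counts (median 3154386). Levels are in CPM, a gene's count scaled to library size, listed for replicates 1, 2 and 3. The 7 Treg markers, Foxp3, Il2ra, Ikzf2, Ctla4, Cd3e, Cd4 and Tnfrsf18, had counts in every group and summed to 2130 to 3638 CPM per library. Summed effector markers (Icos, Klrg1, Prdm1 and Cd44) were at 690.9, 292 and 335 CPM in fl/fl effector libraries, 586, 532 and 639 in fl/+ and 973, 834 and 694 in +/+, and at 85.3 to 206 in resting libraries. Summed resting markers (Ccr7, Lef1 and Tcf7) were at 1314, 1484 and 1770.0 CPM in fl/fl effector libraries, 1139, 1199 and 1066 in fl/+ and 847, 863 and 1183 in +/+, and at 1531 to 1820.0 in resting libraries. So fl/fl effector replicate 1 stood apart from the other fl/fl effector libraries toward the effector markers, and +/+ effector replicate 3 stood apart from its group toward the resting ones. Their part in the results was not tested. Calls of the integrin genes and Icam1 that were gained or lost when 1 of them was left out are given below.

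Markers of other cells were low or are also known from T cells. The 5 platelet markers, checked because Itgb3 is abundant in platelets, summed to 0 to 2.89 CPM per library, with Pf4 at 0 counts in all 18 and none passing the filter. The 5 B cell markers in the table, of 6, summed to 9.39 to 74.6 CPM, highest in +/+ resting replicate 3 (74.6), fl/+ resting replicate 3 (54.5) and fl/+ effector replicate 3 (47.6). The 4 dendritic markers summed to 1.97 to 6.55 CPM. The myeloid sum, 5 of 6 genes at 63.2 to 103 CPM, was mostly Cst3, the plasma cell sum, 2 of 3 genes at 84.6 to 128 CPM, mostly Xbp1, and the stromal or endothelial sum, 4 genes at 80.9 to 258 CPM, mostly Pecam1. The 5 CD8 or NK markers summed to 25.3 to 105 CPM and were highest in fl/fl effector replicate 1. Fewer cells of a type and less RNA per cell cannot be told apart in these bulk libraries.

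Per length, the leukocyte subunits Itgb7 and Itgb2 were the most abundant of the 10 genes. Over the 18 libraries, the mean level was 381 FPKM (288 to 462) for Itgb7, 204 FPKM (175 to 234) for Itgb2 and 110.1 FPKM (65 to 172) for Itgal, where FPKM is scaled for gene length and depth. Itga4 followed at 39.3 FPKM (28.1 to 54), Itgb1 at 34.6 FPKM (7.92 to 82.7), Itgae at 27.2 FPKM (0.28 to 113) and Icam1 at 20.2 FPKM (9.21 to 42.4). The partners of TGF-beta release and matrix binding were the lowest, with Itgb3 at 13.1 FPKM (3.51 to 24.9), Itgb8 at 4.75 FPKM (0.800 to 14.5) and Itgav at 3.67 FPKM (1.02 to 7.06). Itgb2, Itgb7 and Itga4 spanned narrow ranges. Itgae spanned the widest of the 10, with 3 counts in fl/fl resting replicate 2 and 1887 in +/+ effector replicate 1.

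**Figure D1:**
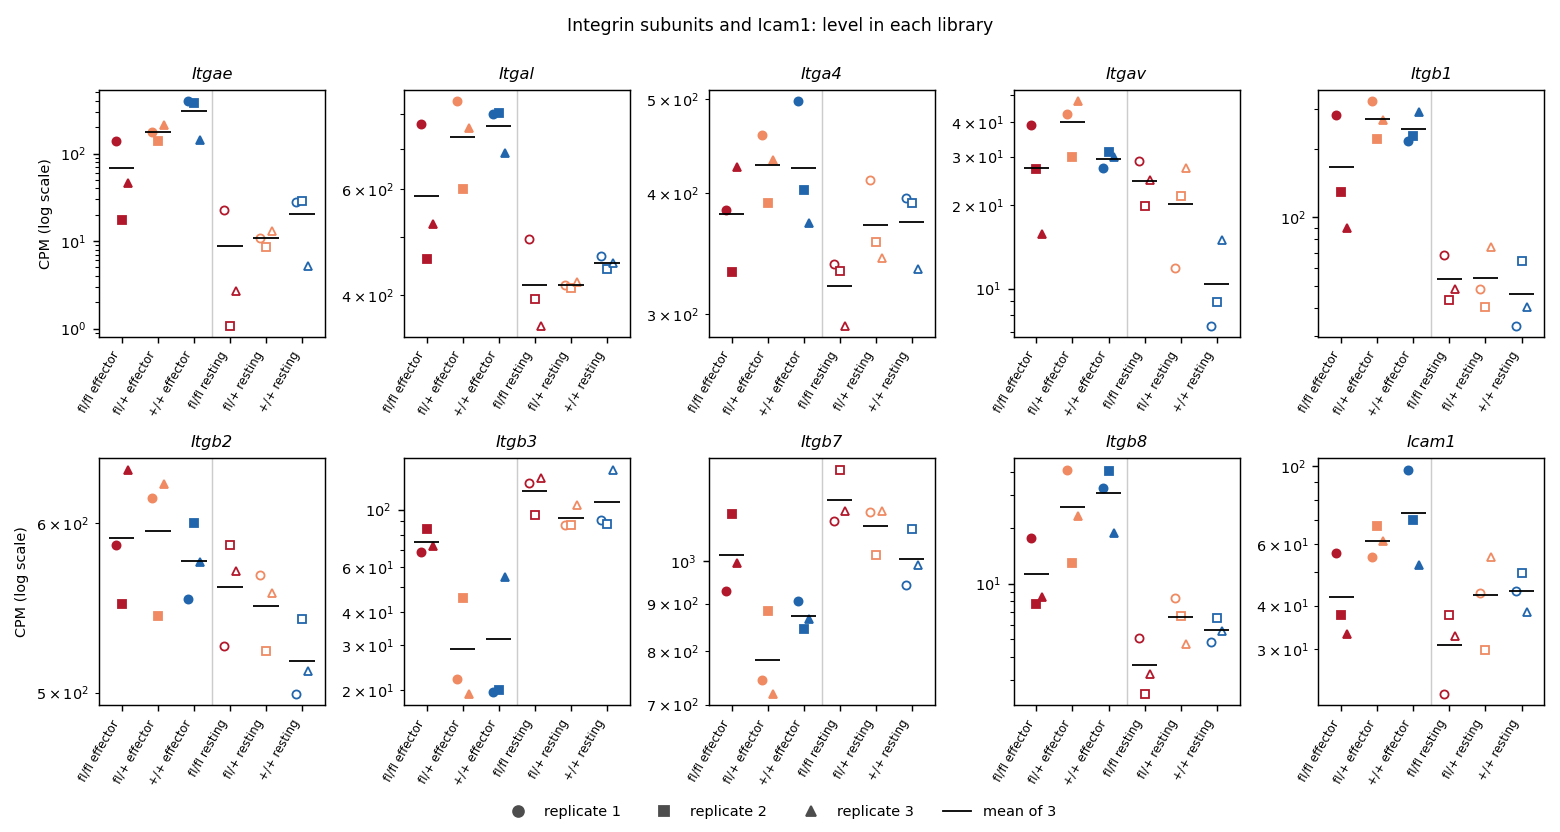
Level of each gene in CPM (log axis, scaled for each gene) in the 18 libraries, with effector groups left of resting groups and, within each state, fl/fl, fl/+ and +/+ from left to right. Symbols give replicates 1 to 3 and bars the mean of 3 libraries. Itgae, Itgb1 and Itgb8 sit higher in effector than in resting groups, whereas Itgb3 sits highest in resting groups.

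Between states, Itgae, Itgb1 and Itgb8 rose in all 3 genotypes. Itgal and Itgav rose in fl/+ and +/+ cells and Icam1 in +/+ cells, whereas Itgb3 fell in fl/+ and +/+ cells and Itgb7 in fl/+ cells. These are calls within each genotype by the filtered edgeR test. That test called none of the 10 for a change between states that differed from the change in +/+ cells. With the batch number as a block within genotype, Itgal and Itgb3 were also called in fl/fl cells. Some markers of other cells moved with the states. Of the 5 CD8 or NK markers 3 were tested, and Nkg7 was higher in effector cells of all 3 genotypes (2.15 in fl/fl, 2.61 in fl/+ and 2.30 in +/+), while Cd8b1 was lower in fl/+ (-0.77) and +/+ cells (-0.70). Pecam1 was lower in fl/+ (-1.03) and +/+ cells (-1.01), and Cst3 was higher in +/+ cells (0.53). Their part in the results was not tested. In fl/fl cells 3 of 10 genes rose (Itgae, Itgb1 and Itgb8) and 0 fell, where 5.01% of all tested genes rose and 1.33% fell, 6.34% in all. In fl/+ cells 5 rose, adding Itgal and Itgav, and 2 fell (Itgb3 and Itgb7), against 9.72% higher, 6.58% lower and 16.3% in all. In +/+ cells 6 rose, the same 5 and Icam1, and 1 fell (Itgb3), against 9.49% higher, 6.5% lower and 16% in all. The shares of these 10 genes were thus above the share of all genes in each genotype, and the genes had been named with earlier results of these data known. The median log2 fold change of the 10 was 0.37 in fl/fl, 0.67 in fl/+ and 0.76 in +/+, and that of all tested genes -0.012, -0.0074 and -0.012. A call is a Benjamini-Hochberg adjusted p under 0.05 over 10630 genes in edgeR's quasi-likelihood test. Of the 10, 5 were called in fl/fl cells without the filter on low counts, where 1012 of all genes were. With the filter, 1 was called without effector replicate 1, resting replicate 2 or resting replicate 3, and 5 with the batch number as a block within genotype. The number of all genes called in fl/fl cells was 674, and it was 266 without fl/fl effector replicate 1, 321 without fl/fl resting replicate 2, 292 without fl/fl resting replicate 3 and 1071 with that block. In fl/+ cells it was 1732, and it was 1114 when fl/+ resting replicate 1 and 1092 when fl/+ effector replicate 3 was left out.

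**Figure D2:**
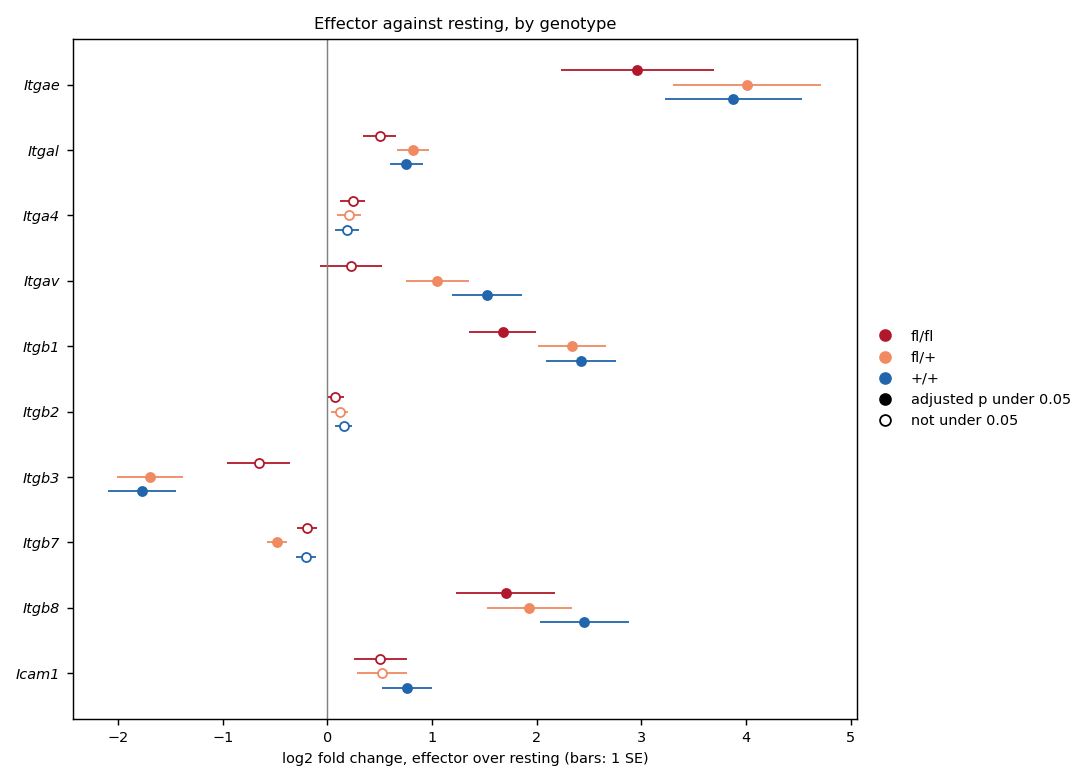
Log2 fold change of each gene, effector over resting, in fl/fl, fl/+ and +/+ cells, with bars of 1 SE. Filled points have an adjusted p under 0.05. Itgae has the highest values, 2.96, 4.01 and 3.88, and Itgb3 the lowest, -0.66, -1.69 and -1.77.

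Itgae (chr11:73090505-73147449, plus strand of GRCm38.p6, as all positions here) encodes alpha E, the CD103 subunit. Its level was 141, 17.4 and 46.5 CPM in the fl/fl effector libraries, 178, 139 and 210.4 in fl/+ and 399, 382 and 143 in +/+. In resting libraries it was 23, 1.08 and 2.66 CPM in fl/fl, 11, 8.66 and 13.1 in fl/+ and 27.7, 28.4 and 5.13 in +/+. Effector and resting libraries did not overlap in fl/+ or +/+ cells, while in fl/fl the effector replicate 2 lay under the resting replicate 1. The log2 fold change between states was 2.96 (SE 0.73, adjusted p = 0.0188) in fl/fl, 4.01 (SE 0.71, adjusted p = 0.00057) in fl/+ and 3.88 (SE 0.66, adjusted p = 0.000371) in +/+, which is 7.79-fold, 16.1-fold and 14.7-fold. Within each batch number the fl/fl difference was positive. The fl/fl call was lost without effector replicate 1 (1.70, adjusted p = 0.318), resting replicate 2 (2.51, adjusted p = 0.0887) or resting replicate 3 (2.51, adjusted p = 0.1), and without resting replicate 1 the value was 5.19 (adjusted p = 0.00287). The gene Haspin lies inside Itgae on the opposite strand and shares 0 exon bases with it.

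Itgb7 (chr15:102215994-102233405, minus strand), the partner of alpha E and alpha 4, fell in fl/+ cells. The libraries had 928, 1124 and 996 CPM in the fl/fl effector libraries, 744, 882 and 719 in fl/+ and 905, 844 and 866 in +/+. Resting libraries had 1106, 1256 and 1134 CPM in fl/fl, 1129.9, 1014 and 1132 in fl/+ and 943, 1084 and 989.7 in +/+. Effector libraries lay under resting libraries in fl/+ and +/+ cells, and the groups overlapped in fl/fl cells. The log2 fold change in fl/+ was -0.48 (SE 0.094, adjusted p = 0.00132), and it was -0.20 (SE 0.094, adjusted p = 0.255) in fl/fl and -0.21 (SE 0.095, adjusted p = 0.156) in +/+.

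Itga4 (chr2:79255426-79333114, plus strand), the alpha 4 subunit of gut and tissue homing, was called in no comparison. Its level was 384, 332 and 426 CPM in the fl/fl effector libraries, 459, 390.5 and 433 in fl/+ and 497, 403 and 373 in +/+. Among resting libraries the level was 338, 333 and 292 CPM in fl/fl, 412, 356 and 343 in fl/+ and 395, 391 and 334 in +/+. The libraries of the states overlapped in each genotype. The log2 fold change between states was 0.24 (SE 0.12, adjusted p = 0.276) in fl/fl, 0.20 (SE 0.12, adjusted p = 0.267) in fl/+ and 0.19 (SE 0.12, adjusted p = 0.323) in +/+, and the 95% interval in +/+ ran from -0.046 to 0.42. Itga4 shares 1124 exon bases with Cerkl on the opposite strand, which had a mean of 2.51 to 4.68 CPM per group, and the sources used here do not say whether counting used the strand.

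Itgal (chr7:127296139-127335137, plus strand), the alpha L subunit of LFA-1, rose between states in fl/+ and +/+ cells. Its level came to 771, 459.9 and 525 CPM in the fl/fl effector libraries, 840.1, 600 and 759 in fl/+ and 798, 804 and 689.7 in +/+. In the resting state it was 495, 394 and 356 CPM in fl/fl, 415, 411 and 421 in fl/+ and 465, 442 and 452 in +/+. The states did not overlap in fl/+ or +/+ cells. In fl/fl cells effector replicate 2 lay under resting replicate 1. The log2 fold change was 0.50 (SE 0.16, adjusted p = 0.062) in fl/fl, 0.82 (SE 0.16, adjusted p = 0.00105) in fl/+ and 0.75 (SE 0.16, adjusted p = 0.00204) in +/+. With the batch number as a block, the fl/fl value passed the threshold (0.49, adjusted p = 0.0183), and with the block within genotype it also did (0.48, adjusted p = 0.00312). It passed too without resting replicate 1 (0.65, adjusted p = 0.0225) or effector replicate 2 (0.65, adjusted p = 0.0124), and in DESeq2 (0.51, adjusted p = 0.0229). Without effector replicate 1 the fl/fl value was 0.25 (adjusted p = 0.434).

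Itgb2 (chr10:77530329-77565708, plus strand), the beta subunit of LFA-1, stayed within a narrow range and was called in no comparison. Its level was 586, 549.9 and 635 CPM in the fl/fl effector libraries, 616, 543 and 625 in fl/+ and 553, 599.9 and 575 in +/+. Resting cells had 525, 586 and 569.7 CPM in fl/fl, 568, 523 and 556 in fl/+ and 499, 541 and 512 in +/+. The states overlapped in fl/fl and fl/+ cells and did not in +/+ cells, where the log2 fold change was 0.15 (SE 0.082, adjusted p = 0.226), beside 0.074 in fl/fl and 0.12 in fl/+. The +/+ value passed the threshold in limma on log2(FPKM + 1) (0.25, adjusted p = 0.0357) and on log2(FPKM + 0.1) (0.25, adjusted p = 0.0362). On these scales the median of all tested genes in +/+ was itself higher, at 0.0753 and 0.0845, against -0.012 in edgeR. The LFA-1 subunits thus differed in their measured change, with Itgal called and Itgb2 not, and the difference between the subunits was not tested.

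Icam1 (chr9:21015940-21028814, plus strand), the ligand of LFA-1, rose between states in +/+ cells. The level of Icam1 was 56.5, 37.6 and 33.2 CPM in the fl/fl effector libraries, 55, 67.6 and 61.2 in fl/+ and 97.8, 70.3 and 52.1 in +/+. The resting libraries held 22.4, 37.5 and 32.8 CPM in fl/fl, 43.5, 29.9 and 54.9 in fl/+ and 44.1, 49.4 and 38.3 in +/+. In fl/+ and +/+ cells the lowest effector library lay just above the highest resting one, at 55 against 54.9 CPM in fl/+ and 52.1 against 49.4 CPM in +/+, and in fl/fl the states overlapped. The log2 fold change was 0.51 (SE 0.25, adjusted p = 0.287) in fl/fl, 0.52 (SE 0.24, adjusted p = 0.151) in fl/+ and 0.76 (SE 0.24, adjusted p = 0.0358) in +/+. Without fl/fl effector replicate 1 the fl/fl value was 0.22 (adjusted p = 0.794). Within batch numbers 1, 2 and 3 the fl/fl difference was 1.32, 0.0019 and 0.021. The +/+ call was lost when resting replicate 1 (adjusted p = 0.0885) or 3 (0.116) or effector replicate 1 (0.259) or 2 (0.0633) was left out, with values of 0.46 to 0.79. Icam1 shares 511 exon bases with Gm47079 on the opposite strand, a gene that is not among the table's symbols.

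Itgb1 (chr8:128685654-128733579, plus strand) encodes beta 1, the partner of alpha 4 and many other alpha subunits. Its level was 281, 129 and 89.5 CPM in the fl/fl effector libraries, 323, 221 and 266 in fl/+ and 215, 227 and 289 in +/+. It was at 68.3, 43.3 and 48.4 CPM in fl/fl, 48.2, 40.5 and 73.7 in fl/+ and 33.5, 64.4 and 40.3 in +/+ in the resting state. Every effector library lay above every resting library of its genotype. Itgb1 rose by 1.67 (SE 0.32, adjusted p = 0.00355) in fl/fl, 2.34 (SE 0.32, adjusted p = 6.99e-05) in fl/+ and 2.42 (SE 0.33, adjusted p = 5.47e-05) in +/+ on the log2 scale, or 3.19-fold, 5.06-fold and 5.37-fold. Replicate 1, at 281 CPM, lay far above the other fl/fl effector libraries, and without it the fl/fl value was 1.05 (adjusted p = 0.0381).

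Itgb8 (chr12:119162803-119238276, minus strand) encodes beta 8, the subunit that pairs with alpha v to release TGF-beta. Itgb8 was at 17.7, 7.72 and 8.46 CPM in the fl/fl effector libraries, 41.4, 12.9 and 23.2 in fl/+ and 32.7, 40.7 and 18.9 in +/+. The resting libraries were low, at 5.07, 2.53 and 3.25 CPM in fl/fl, 8.4, 6.69 and 4.7 in fl/+ and 4.82, 6.48 and 5.53 in +/+, from 7 to 39 counts. Again every effector library lay above every resting library of its genotype. Itgb8 rose by 1.70 (SE 0.47, adjusted p = 0.0352) in fl/fl, 1.93 (SE 0.41, adjusted p = 0.00232) in fl/+ and 2.46 (SE 0.43, adjusted p = 0.000479) in +/+ on the log2 scale, or 3.26-fold, 3.81-fold and 5.49-fold. The fl/fl call was lost without effector replicate 1 (1.13, adjusted p = 0.36), resting replicate 2 (1.53, adjusted p = 0.135) or resting replicate 3 (1.62, adjusted p = 0.132), and on log2(FPKM + 1) (1.12, adjusted p = 0.0626).

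Itgav (chr2:83722303-83806917, plus strand) encodes alpha v, the partner of beta 8 and beta 3. Itgav was at 39.1, 27.2 and 15.7 CPM in the fl/fl effector libraries, 42.7, 30.0 and 47.7 in fl/+ and 27.2, 31.2 and 29.9 in +/+. Resting levels were 28.9, 19.8 and 24.8 CPM in fl/fl, 11.8, 21.6 and 27.2 in fl/+ and 7.36, 8.92 and 15 in +/+. The states did not overlap in fl/+ or +/+ cells, and in fl/fl cells the effector library of replicate 3 lay under all resting ones. Itgav rose by 1.05 (SE 0.30, adjusted p = 0.0182) in fl/+ and 1.52 (SE 0.33, adjusted p = 0.00333) in +/+, and was at 0.22 (SE 0.30, adjusted p = 0.749) in fl/fl. The fl/+ call was lost when resting replicate 1 (0.73, adjusted p = 0.137), effector replicate 1 (1.01, adjusted p = 0.0534) or effector replicate 3 (0.92, adjusted p = 0.0835) was left out. Itgav shares 634 exon bases with Gm13684 on the opposite strand, a gene that is not among the table's symbols.

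Itgb3 (chr11:104608000-104670476, plus strand) encodes beta 3, the other partner of alpha v in matrix binding, and like Itgb7 it had lower levels in effector cells. Itgb3 was at 68.6, 83.9 and 72.5 CPM in the fl/fl effector libraries, 22.2, 45.3 and 19.4 in fl/+ and 19.6, 20.1 and 55.1 in +/+. Among the resting groups it was 127, 94.9 and 133 CPM in fl/fl, 87, 87.4 and 104 in fl/+ and 90.8, 87.9 and 143 in +/+. Every effector library lay under every resting library of its genotype, and the gap was narrowest in fl/fl. Itgb3 fell in fl/+ cells, with a log2 fold change of -1.69 (SE 0.32, adjusted p = 0.00093), and in +/+ cells, with -1.77 (SE 0.33, adjusted p = 0.000787). In fl/fl cells the value was -0.66 (SE 0.30, adjusted p = 0.232), and -0.65, adjusted p = 0.0404 with the block within genotype. Without +/+ effector replicate 3, the +/+ value was -2.43 (adjusted p = 2.54e-05).

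Between genotypes, Itgb3 was higher in fl/fl effector cells than in both other genotypes. With the filter on low counts, all libraries and no block, it was the only one of the 10 genes called by edgeR. Without that filter, 6 of the 10 and 830 of all genes were called against +/+, and 5 and 488 against fl/+. In limma on log2(FPKM + 0.1) the counts were 0 and 183 against +/+, and 0 and 14 against fl/+. Itgae, Itgb8 and Icam1 had lower means in fl/fl effector cells and did not pass the threshold in the filtered edgeR test without a block. Against +/+, the effector comparison called 1 of 10 genes (2.81% of all genes, 299) and the resting one 0 (0.696%, 74). Against fl/+, the effector comparison called 1 of 10 (0.677%, 72) and the resting one 0 (0.0282%, 3). For fl/+ against +/+ the counts were 0 of 10 in the effector state (0.00941%, 1) and 0 in the resting state (0.0847%, 9). Both comparisons of fl/fl effector cells share the fl/fl libraries. State markers moved with them: against +/+, 2 of 3 resting markers were higher (Ccr7 and Lef1, at 0.68 and 1.06) and 2 of 4 effector markers lower (Icos and Prdm1, at -1.15 and -1.78), and against fl/+, 1 of 3 resting markers was higher (Lef1, at 0.79) and 0 of 4 effector markers were called. The sums per library are given above, and their part in the genotype results was not tested. Of the 7 Treg markers 2 were lower in effector cells against +/+ (Ctla4 at -1.31 and Ikzf2 at -0.91) and 1 against fl/+ (Ikzf2). Of the markers of other cells, Pecam1 was higher in effector cells against +/+ (0.67). In resting cells Ikzf2 was lower against +/+ too (-0.79, adjusted p = 0.0336 in edgeR). At an unadjusted p under 0.05, edgeR gave 6 of 10 genes in effector and 2 in resting cells against +/+, where 1834 and 873 of all 10630 genes passed. It gave 6 and 0 against fl/+, where 1250 and 513 of all genes passed, and 0 and 1 for fl/+ against +/+, where 581 and 669 did. DESeq2 called 3 of the 10 in effector and 1 in resting cells against +/+, 2 and 0 against fl/+, and 0 and 0 for fl/+ against +/+. Over all genes its counts were also higher than those of edgeR, at 455 and 130 against +/+, 181 and 6 against fl/+, and 19 and 40 for fl/+ against +/+. With the batch number as a block, 552 genes and 3 of the 10 (Itgae, Itgb3 and Itgb8) were called between fl/fl and +/+ effector cells, and 181 genes and 2 of the 10 (Itgb3 and Itgb7) between fl/fl and fl/+ effector cells. The block gave 179 genes in fl/fl against +/+ resting cells, and 34 and 90 in fl/+ against +/+ effector and resting cells.

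**Figure D3:**
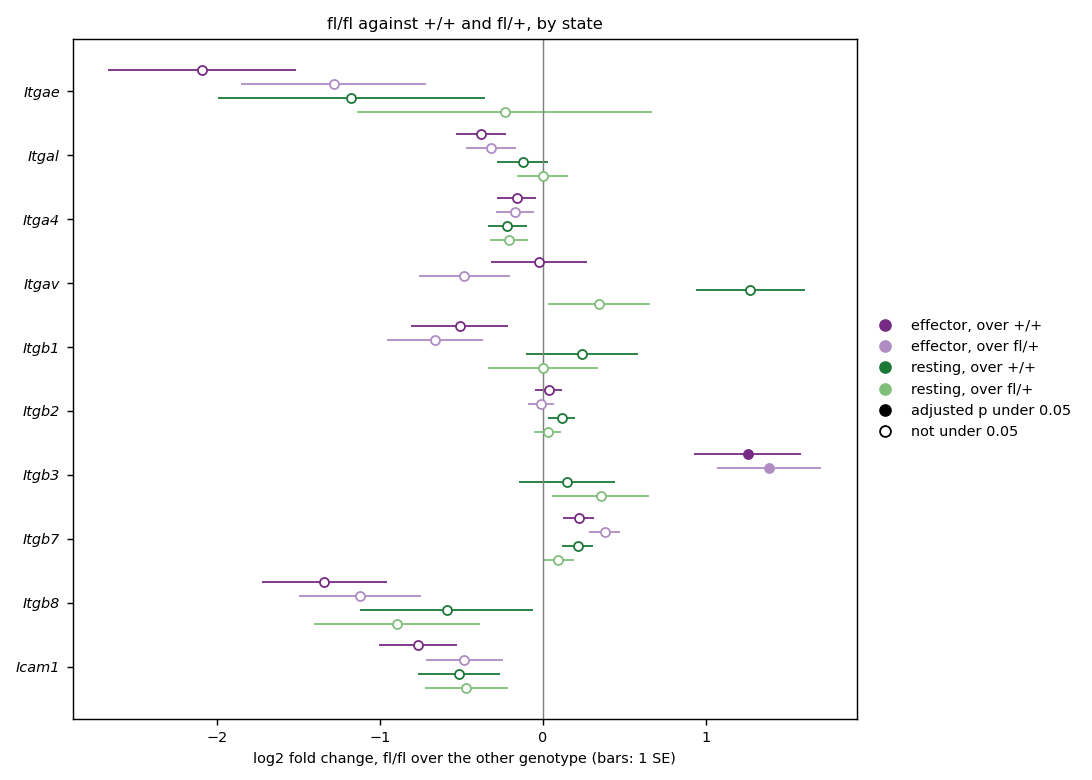
Log2 fold change of each gene, fl/fl over +/+ and fl/fl over fl/+, in effector and resting cells, with bars of 1 SE. Filled points have an adjusted p under 0.05. The filled points are Itgb3 in effector cells, at 1.26 over +/+ and 1.39 over fl/+, and Itgae over +/+ in effector cells is the lowest at -2.09.

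Itgb3 averaged 75 ± 7.93 CPM in fl/fl effector cells, 28.9 ± 14.2 in fl/+ and 31.6 ± 20.3 in +/+ (SD, n = 3 each). The lowest fl/fl library, at 68.6 CPM, lay above the highest of the other genotypes, +/+ replicate 3 at 55.1 CPM. On the log2 scale the difference was 1.26 (SE 0.33, adjusted p = 0.0452) over +/+ and 1.39 (SE 0.32, adjusted p = 0.0484) over fl/+, or 2.39-fold and 2.62-fold. Within the 3 batch numbers the difference from +/+ was 1.78, 2.04 and 0.39 on the log2 scale. The call against +/+ was lost without +/+ effector replicate 1 (0.95, adjusted p = 0.248) or 2 (1.06, adjusted p = 0.199), without fl/fl effector replicate 2 (1.16, adjusted p = 0.187) or 3 (1.27, adjusted p = 0.0999), and on log2(FPKM + 0.1) (1.38, adjusted p = 0.0502). Without +/+ effector replicate 3 it was 1.92 (adjusted p = 0.0018). The call against fl/+ was lost without fl/+ effector replicate 1 (1.21, adjusted p = 0.231) or 3 (1.18, adjusted p = 0.294), without fl/fl effector replicate 2 (1.29, adjusted p = 0.248) or 3 (1.40, adjusted p = 0.117), and on log2(FPKM + 1) (1.29, adjusted p = 0.0735) or log2(FPKM + 0.1) (1.45, adjusted p = 0.106). In resting cells the means were 118 ± 20.3 CPM in fl/fl, 92.9 ± 9.85 in fl/+ and 107 ± 30.9 in +/+, with a value of 0.15 (SE 0.29, adjusted p = 0.966) over +/+.

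Itgae averaged 68.3 ± 64.5 CPM in fl/fl effector cells, 176 ± 35.7 in fl/+ and 308 ± 143 in +/+. The highest fl/fl library, replicate 1, lay just under the lowest +/+ library, replicate 3, and inside the fl/+ range. Its log2 fold change was -2.09 (SE 0.58, adjusted p = 0.0535) over +/+ and -1.29 (SE 0.57, adjusted p = 0.367) over fl/+. With the batch number as a block, the value over +/+ passed the threshold (-2.28, adjusted p = 0.0103). It also passed without fl/fl effector replicate 1 (-3.36, adjusted p = 0.0042) or +/+ effector replicate 3 (-2.44, adjusted p = 0.0199). Over fl/+, it was -2.56, adjusted p = 0.0321 without fl/fl effector replicate 1. In resting cells Itgae averaged 8.9 ± 12.2 CPM in fl/fl, 10.9 ± 2.25 in fl/+ and 20.4 ± 13.2 in +/+, groups that overlapped.

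Itgb8 averaged 11.3 ± 5.58 CPM in fl/fl effector cells, 25.8 ± 14.4 in fl/+ and 30.8 ± 11.1 in +/+. Each fl/fl library lay under each +/+ library, and the fl/+ range held the highest fl/fl one. The fitted log2 fold change was -1.34 (SE 0.38, adjusted p = 0.0621) over +/+ and -1.12 (SE 0.38, adjusted p = 0.196) over fl/+. Over +/+ it passed with the batch number as a block (-1.43, adjusted p = 0.0154), in DESeq2 (-1.40, adjusted p = 0.0232), on log2(FPKM + 1) (-1.26, adjusted p = 0.0496), and without fl/fl effector replicate 1 (-1.92, adjusted p = 0.0149) or +/+ effector replicate 3 (-1.59, adjusted p = 0.0227). Over fl/+ it passed without fl/fl effector replicate 1 (-1.71, adjusted p = 0.0407) or fl/+ effector replicate 2 (-1.44, adjusted p = 0.0457).

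Icam1 averaged 42.4 ± 12.3 CPM in fl/fl effector cells, 61.2 ± 6.32 in fl/+ and 73.4 ± 23 in +/+. The fl/fl replicate 1, at 56.5 CPM, lay above the lowest library of each other genotype, and the other fl/fl libraries lay under all of them. As a log2 fold change this was -0.77 (SE 0.24, adjusted p = 0.0852) over +/+ and -0.48 (SE 0.24, adjusted p = 0.436) over fl/+, and the within-batch differences from +/+ were -0.79, -0.89 and -0.64. The value over +/+ passed in DESeq2 (-0.79, adjusted p = 0.0404) and without fl/fl effector replicate 1 (-1.06, adjusted p = 0.0222) or +/+ effector replicate 3 (-0.96, adjusted p = 0.0253). In resting cells each fl/fl library lay under each +/+ library, at means of 30.9 ± 7.75 CPM in fl/fl and 44 ± 5.57 in +/+, with a value of -0.52 (SE 0.25, adjusted p = 0.636).

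For Itgal and Itgb1 the call depended on 1 library and on the filter on low counts. Over +/+ effector cells Itgal was at -0.38 (SE 0.15, adjusted p = 0.196) and Itgb1 at -0.51 (SE 0.30, adjusted p = 0.418). Without the filter, edgeR gave an adjusted p of 0.013 for Itgal (-0.38) and 0.00229 for Itgb1 (-0.51). Over fl/+ it then gave 7.41e-06 for Itgb1 (-0.68). The fold changes themselves hardly moved without the filter, whereas adjusted p fell widely. For Itgae over +/+ effector cells, edgeR's adjusted p went from 0.0535 to 2.88e-48, and the number of all genes called from 299 to 830. The cause was not tested, so these calls add little to the filtered ones. With the filter but without fl/fl effector replicate 1, both passed the threshold over +/+, Itgal at -0.63, adjusted p = 0.00907 and Itgb1 at -1.14, adjusted p = 0.0136. Against fl/+ without that library they were at -0.58, adjusted p = 0.0265 and -1.29, adjusted p = 0.0124. Without that library 6 of the 10 genes were called against each of +/+ and fl/+, where 648 and 310 of all genes were. Those 6 were Itgae, Itgal, Itgb1, Itgb8 and Icam1, lower, and Itgb3, higher, against +/+, and the same genes with Itgb7, higher, in place of Icam1 against fl/+. In fl/fl effector cells replicate 1 was the highest library for 6 of the 10 genes, and in fl/fl resting cells it was also the highest for 6. Other groups held such libraries too. Replicate 3 of fl/+ resting cells was the highest for 7, and replicate 2 of +/+ resting cells for 6. Replicate 2 was the lowest for 7 in fl/+ effector and for 6 in fl/+ resting cells. The share over all genes was not counted. Leaving out other libraries gave 0 of the 10 against +/+ without +/+ effector replicate 1 or 2 or fl/fl effector replicate 2 or 3, and 4 without +/+ effector replicate 3, where 31, 51, 35, 88 and 542 of all genes were called. Against fl/+ it gave 0 without fl/+ effector replicate 1 or 3 or fl/fl effector replicate 2 or 3, and 3 without fl/+ effector replicate 2, where 4, 3, 4, 15 and 171 of all genes were called.

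Itgb7 lay higher in each fl/fl effector library than in each +/+ or fl/+ effector library, at means of 1016 ± 99.5 CPM in fl/fl, 782 ± 88.2 in fl/+ and 872 ± 30.7 in +/+. Its fitted value was, in log2, 0.22 (SE 0.095, adjusted p = 0.228) over +/+ and 0.38 (SE 0.094, adjusted p = 0.0677) over fl/+. Over fl/+ it passed with the batch number as a block (0.38, adjusted p = 0.0299), in DESeq2 (0.38, adjusted p = 0.013) and without fl/+ effector replicate 2 (0.47, adjusted p = 0.0213) or fl/fl effector replicate 1 (0.44, adjusted p = 0.0244). Itgav was higher in each fl/fl resting library than in each +/+ resting library, with means of 24.5 ± 4.55 CPM in fl/fl, 20.2 ± 7.79 in fl/+ and 10.4 ± 4.04 in +/+. Its log2 fold change of 1.27 (SE 0.34, adjusted p = 0.0957) over +/+ missed the threshold, and it passed in DESeq2 (1.26, adjusted p = 0.0178) and without +/+ resting replicate 3 (1.61, adjusted p = 0.0311). In effector cells Itgav was at -0.024 (SE 0.30, adjusted p = 0.982) over +/+. Over +/+ effector cells, Itga4 was at -0.16 with a 95% interval of -0.39 to 0.07, and Itgb2 at 0.035 with an interval of -0.13 to 0.20.

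Order of the group means differed by gene. For Itgae, Itgal, Itgb8 and Icam1 it was fl/fl, fl/+ and +/+ from low to high in effector cells, and for Itgb3 fl/fl was the highest and fl/+ and +/+ were neighbours. Between fl/+ and +/+, none of the 10 genes passed the filtered edgeR test in either state, with values of -0.81 for Itgae, -0.22 for Itgb8, -0.28 for Icam1 and -0.13 for Itgb3 in effector cells. In resting cells Itgav was at 0.93 (SE 0.35, adjusted p = 0.551). Without the filter on low counts, edgeR called Itgae in effector (-0.79, adjusted p = 4.93e-07) and resting cells (-0.94, adjusted p = 0.000248). It then also called Itgav in resting cells (0.93, adjusted p = 0.0134). With the filter, edgeR's adjusted p for Itgae was 0.943 in effector and 0.962 in resting cells, and the libraries overlapped in both states. Within batch numbers 1, 2 and 3 the Itgae difference was -1.164, -1.455 and 0.56 in effector cells. In resting cells it was -1.293, -1.656 and 1.28.

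Whether the change between states itself differed by genotype was tested as an interaction. None of the 10 genes was called for fl/fl against +/+, where 0% of all genes were called by edgeR, or for fl/+ against +/+, where 0.0188% (2 genes) were. For fl/fl against +/+, 953 genes had an unadjusted p under 0.05 and 2 of the 10 did, namely Itgav at -1.30 (SE 0.45, adjusted p = 0.422) and Itgb3 at 1.11 (SE 0.44, adjusted p = 0.476), with unadjusted p = 0.00905 and 0.0207. DESeq2 called 15 genes, limma on log2(FPKM + 1) 5, the replicate block 3 and the block within genotype 120, with 0 of the 10 under each. Without fl/fl effector replicate 1 it was 33 genes and without +/+ effector replicate 3 it was 15. For Itgav the interaction was negative within each batch number (-1.39, -1.31 and -1.61), and for Itgb3 positive (1.30, 1.93 and 0.50). Without the filter on low counts, 246 genes and 3 of the 10 were called, namely Itgav at -1.29 (adjusted p = 0.00553), Itgb1 at -0.74 (adjusted p = 0.0116) and Itgb3 at 1.12 (adjusted p = 7.06e-05).

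Ratios of partner subunits were taken from FPKM as a description of RNA. The ratio Itgae/Itgb7 was 0.105, 0.0107 and 0.0321 in fl/fl effector libraries, 0.165, 0.109 and 0.202 in fl/+ and 0.304, 0.313 and 0.113 in +/+, and at most 0.0202 in the resting libraries. Itgb7 RNA thus exceeded Itgae RNA in each of the 18 libraries, also where Itgae was highest. The ratio Itgav/Itgb3 was 0.466, 0.263 and 0.177 in fl/fl effector libraries, 1.57, 0.542 and 2.01 in fl/+ and 1.13, 1.27 and 0.444 in +/+. In resting libraries it was 0.186, 0.171 and 0.153 in fl/fl, 0.111, 0.202 and 0.213 in fl/+ and 0.0659, 0.0829 and 0.0858 in +/+, so effector libraries lay above the resting ones in fl/+ and +/+ cells, and fl/fl effector replicate 3 lay among the fl/fl resting ones. The ratio Itgav/Itgb8 was 0.949, 1.51 and 0.796 in fl/fl effector libraries, 0.445, 1.00 and 0.884 in fl/+ and 0.358, 0.331 and 0.684 in +/+, and 2.45, 3.4 and 3.31 in fl/fl resting libraries, 0.604, 1.37 and 2.49 in fl/+ and 0.654, 0.596 and 1.17 in +/+. All 3 fl/fl resting libraries lay above every other library but fl/+ resting replicate 3, which lay among them. Itga4/Itgb1 was 0.574, 1.08 and 1.99 in fl/fl effector libraries, 0.597, 0.744 and 0.684 in fl/+ and 0.971, 0.748 and 0.541 in +/+, and 1.95 to 4.97 in resting libraries. Itgal/Itgb2 was 0.443 to 0.778 in effector and 0.337 to 0.507 in resting libraries.

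**Figure D4:**
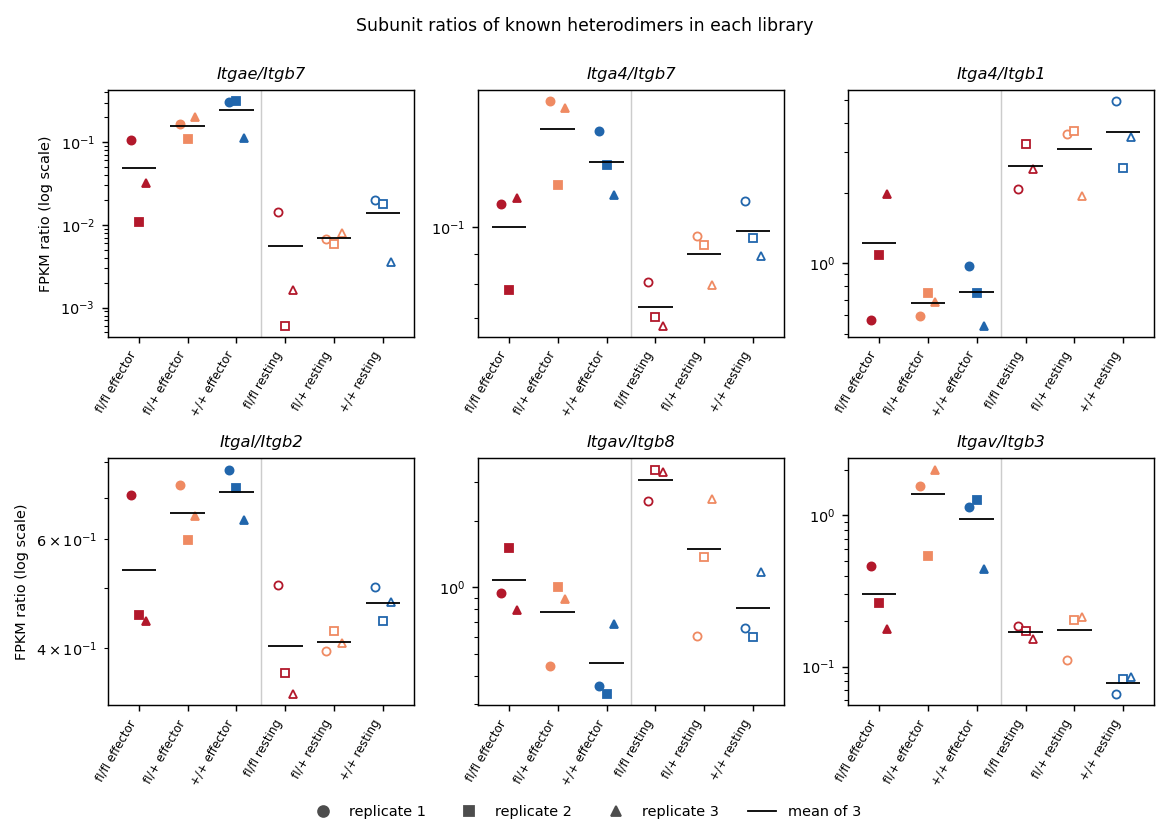
FPKM ratio of alpha to beta subunit for 6 known pairs (log axis, scaled for each pair) in the 18 libraries, with effector groups left of resting groups and fl/fl, fl/+ and +/+ from left to right within each state. Symbols give replicates 1 to 3 and bars the mean of 3 libraries. Itgae/Itgb7 runs from 0.0107 to 0.313 in effector libraries and reaches 0.0202 in resting ones, and Itga4/Itgb1 is lower in the effector libraries of each genotype, with the narrowest gap in fl/fl, at 1.99 in effector replicate 3 and 2.08 in resting replicate 1.

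Among the 10 genes, log2 CPM over the 18 libraries went in 2 directions, described by Pearson's r with no test, since the libraries share states and depth. Itgal and Itgb8 had r = 0.945, Itgae and Itgal 0.935 and Itgae and Itgb8 0.920. Itgb3 had r = -0.912 with Itgb8 and 0.816 with Itgb7, and Itga4 with Itgav had 0.094. By the same measure over 8786 genes, those most like Itgae were Ccr6 (r = 0.98), Fgl2 (0.975) and Cd101 (0.973). For Itgb8 they were Dapp1 (r = 0.974), Rabgap1l (0.964) and Tbc1d4 (0.958), for Itgb1 Ebi3 (r = 0.964), Ptpn5 (0.952) and Bhlhe40 (0.952) and for Itgal Ttn (r = 0.971), Matk (0.97) and Cd82 (0.969). Those most like Itgb3 were Ms4a4c (r = 0.979), Ly6c1 (0.977) and S1pr1 (0.971), and for Itgb7 Ptpra (r = 0.933), Pik3r5 (0.924) and Rab3ip (0.923). For Itga4 they were Dynlt3 (r = 0.891), Rgs16 (0.851) and Rabgap1l (0.85), for Itgav Guf1 (r = 0.87), Epcam (0.869) and Marcksl1 (0.849), for Itgb2 Afmid (r = 0.816), Thap4 (0.81) and Plod3 (0.81) and for Icam1 Vps54 (r = 0.858), Irf5 (0.853) and Ptger4 (0.84). Itgb2 had the weakest match of the 10.

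Of 17 other integrin subunits, 5 could be tested and 0 were called in the 11 comparisons by edgeR. Itga6, a laminin receptor subunit, was the most abundant in CPM at 34.6 ± 10.5 in fl/fl effector, 27.8 ± 2.27 in fl/+ effector and 24.9 ± 1.55 in +/+ effector cells, and its change between states in +/+ was -0.54 (SE 0.19, adjusted p = 0.0598). Itga8 had 1 count in all libraries together. Of 16 integrin ligands 3 were tested. Icam2, another LFA-1 ligand, fell between states in all 3 genotypes, with -0.58 (SE 0.14, adjusted p = 0.018) in fl/fl, -0.88 (SE 0.14, adjusted p = 0.000252) in fl/+ and -0.49 (SE 0.15, adjusted p = 0.0268) in +/+ as log2 fold changes. The laminin chain Lamc1 rose in fl/+ (3.25, SE 0.58, adjusted p = 0.000573) and +/+ cells (2.10, SE 0.51, adjusted p = 0.00642), and Thy1 was called in none. The median of the 3 tested ligands between states was 0.32 in fl/fl, 0.47 in fl/+ and 0.54 in +/+, with 6.34%, 16.3% and 16% of all tested genes called.

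Of 35 genes of integrin activation and adaptors 30 were tested. Between states 0 were called in fl/fl cells, 1 higher and 7 lower in fl/+ cells, and 0 higher and 6 lower in +/+ cells, with medians of -0.051, -0.10 and -0.029. Of all tested genes, 6.34% were called in fl/fl, 9.72% were higher and 6.58% lower in fl/+, and 9.49% were higher and 6.5% lower in +/+. Rasgrp2, the exchange factor that activates Rap1 in leukocytes, fell in fl/+ (-1.64, SE 0.26, adjusted p = 0.000203) and +/+ cells (-1.72, SE 0.27, adjusted p = 0.000192). It was higher in fl/fl than in +/+ effector cells (1.16, SE 0.27, adjusted p = 0.0297), at 80.9 ± 32 CPM in fl/fl, 43.2 ± 19.7 in fl/+ and 35.7 ± 7.75 in +/+. The Rap inhibitor Sipa1l1 fell by 0.96 (SE 0.12, adjusted p = 3.68e-05) in fl/+ and 0.56 (SE 0.13, adjusted p = 0.00371) in +/+, and Cyth1, Evl, Flna and Rasgrp1 fell in both. Rap1b fell and the adaptor Vcl rose in fl/+ cells (Rap1b -0.63, SE 0.18, adjusted p = 0.0204, and Vcl 0.94, SE 0.29, adjusted p = 0.0314). Talin 1 (Tln1) and kindlin 3 (Fermt3), which bind integrin tails, were called in none, with Tln1 at a mean of 503 to 524 CPM in each group.

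Of 18 genes of TGF-beta activation and response 17 were in the table and 12 were tested. Between states 1 fell in fl/fl cells, 2 rose and 3 fell in fl/+ cells, and 1 rose and 3 fell in +/+ cells, with medians of -0.077, -0.19 and -0.17, where 6.34%, 16.3% and 16% of all tested genes were called. Furin, the protease that matures TGF-beta, rose in fl/+ (1.67, SE 0.27, adjusted p = 0.000281) and +/+ cells (2.28, SE 0.29, adjusted p = 2.68e-05). It was lower in fl/fl effector cells than in +/+ (-1.31, SE 0.27, adjusted p = 0.0125) and fl/+ (-1.17, SE 0.26, adjusted p = 0.0415), at 20.8 ± 3.78 CPM in fl/fl, 47.6 ± 17.1 in fl/+ and 52.2 ± 9.65 in +/+. The inhibitory Smad7 fell in all 3 genotypes, with -0.73 (SE 0.17, adjusted p = 0.013) in fl/fl, -1.11 (SE 0.17, adjusted p = 0.000168) in fl/+ and -0.85 (SE 0.18, adjusted p = 0.00233) in +/+. In fl/+ cells Tgfbr1 rose and Tgfbr2 and Ski fell, and in +/+ cells Smad2 and Smad4 fell. Tgfb1 had a mean of 3.33 to 5.76 CPM per group, and Lrrc32 (GARP), which holds latent TGF-beta on the Treg surface, was called in none at 157 ± 85.2 CPM in fl/fl, 67 ± 8.6 in fl/+ and 171 ± 102 in +/+ effector cells.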

How the data were processed

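RNA was sequenced from 18 libraries of sorted mouse Treg. Per the submitters' processing notes, the build was mm10 and the tools named are RSEM 1.2.8, STAR 2.6.0 and bcl2fastq 2.17.1.14. The sources used here name no annotation and no strand setting. The authors deposited RSEM expected counts per gene, of which 29.4% of those above 0 were not whole (tolerance 0.001), and FPKM per gene, which the authors normalized for length and depth.

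Expected counts were rounded and analysed in R 4.3.3 with edgeR 4.0.16: TMM scaling, filterByExpr by group (10630 of 23420 genes), 6 group means over all 18 libraries, the quasi-likelihood F test and Benjamini-Hochberg adjustment over all tested genes in each of 11 comparisons. Intervals are 1.96 SE. DESeq2 1.42.0 and limma 3.58.1 (log2 of FPKM + 1 or + 0.1) were alternatives, with RLE size factors, no filter, blocks and libraries left out. Each tool was run on simulated counts with the same spread (dispersion 0.0215) for all genes and no batch effect, where limma used log2 CPM and not FPKM. That setting is simpler than these libraries and does not test the results given here. Correlations used log2 CPM with a prior count of 2 over genes averaging 5 CPM or more, leaving out predicted gene models, and the 3 with the highest r are named. Within-batch differences used log2(CPM + 0.5).

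Library totals of 1658073 to 5756903 counts give more error to low genes. The labels give each library a batch number. Libraries of the same number and genotype in the other state deviated together in 9 of 9 pairs (mean r = 0.207, from 0.141 to 0.345). Libraries of the same number in other genotypes had r over 0.1 in 12 of 36 pairs (mean 0.0666). All 10 genes are named by rule; genes of the pathway lists are named where called, up to 8 a list by lowest p. Itga6, Itga8, Thy1, Tln1, Fermt3, Tgfb1 and Lrrc32 were not called and were chosen after their values were seen. The genes and lists were chosen with earlier results of these data known. The targeted gene and 1 marker of the resting state are not reported here.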

Additional observations from a re-analysis of the deposited data

How the results depend on the processing

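Over 1490 values of the 10 genes under all alternatives, 1413 kept their side of the threshold, 25 lost a call and 52 gained one. Of the 19 called values, 0 changed sign in their 245 alternatives, and the 80 changes of sign were of values called in neither fit. With the filter on low counts, calls that turned on a setting or a library stand beside their values in the results. Calls gained without that filter are given mostly as counts. The cause was not tested. With RLE size factors each count stayed within 1.5 times. Without the filter on low counts the number of all genes called was 1012 for effector against resting fl/fl cells, 176 for fl/+ against +/+ effector cells, 219 for fl/+ against +/+ resting cells, 830 for fl/fl against +/+ effector cells, 315 for fl/fl against +/+ resting cells, 488 for fl/fl against fl/+ effector cells, 94 for fl/fl against fl/+ resting cells, 31 for the fl/+ interaction and 246 for the fl/fl interaction. With the replicate block within genotype the number of all genes called was 1071 for effector against resting fl/fl cells and 120 for the fl/fl interaction. In DESeq2 the number of all genes called was 19 for fl/+ against +/+ effector cells, 40 for fl/+ against +/+ resting cells, 455 for fl/fl against +/+ effector cells, 130 for fl/fl against +/+ resting cells, 181 for fl/fl against fl/+ effector cells, 6 for fl/fl against fl/+ resting cells and 15 for the fl/fl interaction. In limma on log2(FPKM + 1) the number of all genes called was 2 for fl/+ against +/+ effector cells, 33 for fl/fl against fl/+ effector cells and 5 for the fl/fl interaction. With the replicate block the number of all genes called was 34 for fl/+ against +/+ effector cells, 90 for fl/+ against +/+ resting cells, 552 for fl/fl against +/+ effector cells, 179 for fl/fl against +/+ resting cells, 181 for fl/fl against fl/+ effector cells and 3 for the fl/fl interaction. In limma on log2(FPKM + 0.1) the number of all genes called was 183 for fl/fl against +/+ effector cells and 14 for fl/fl against fl/+ effector cells. Leaving out 1 library at a time gave 266 to 791 for effector against resting fl/fl cells, 1092 to 1601 for effector against resting fl/+ cells, 31 to 648 for fl/fl against +/+ effector cells and 6 to 154 for fl/fl against +/+ resting cells, counted over all genes. It gave 3 to 310 for fl/fl against fl/+ effector cells, 1 to 5 for fl/+ against +/+ effector cells, 3 to 75 for fl/+ against +/+ resting cells and 0 to 33 for the fl/fl interaction. Without the filter on low counts the number called of the 10 was 5 for effector against resting fl/fl cells, 1 for fl/+ against +/+ effector cells, 2 for fl/+ against +/+ resting cells, 6 for fl/fl against +/+ effector cells, 2 for fl/fl against +/+ resting cells, 5 for fl/fl against fl/+ effector cells and 3 for the fl/fl interaction. With the replicate block within genotype the number called of the 10 was 5 for effector against resting fl/fl cells. In DESeq2 the number called of the 10 was 3 for fl/fl against +/+ effector cells, 1 for fl/fl against +/+ resting cells and 2 for fl/fl against fl/+ effector cells. In limma on log2(FPKM + 1) the number called of the 10 was 2 for fl/fl against +/+ effector cells and 0 for fl/fl against fl/+ effector cells. In limma on log2(FPKM + 0.1) the number called of the 10 was 0 for fl/fl against +/+ effector cells and 0 for fl/fl against fl/+ effector cells. With the replicate block the number called of the 10 was 3 for fl/fl against +/+ effector cells and 2 for fl/fl against fl/+ effector cells. Leaving out 1 library at a time gave 1 to 4 for effector against resting fl/fl cells, 0 to 6 for fl/fl against +/+ effector cells, 0 to 1 for fl/fl against +/+ resting cells and 0 to 6 for fl/fl against fl/+ effector cells, counted over the 10. The share of higher genes among those called between states was 79.1% in fl/fl, 59.6% in fl/+ and 59.4% in +/+, against 92.5%, 75.5% and 74.3% in limma on log2(FPKM + 1) and 65.4% in fl/fl with the replicate block within genotype. On log2(FPKM + 1) the median log2 fold change of all tested genes was 0.0654, 0.0788 and 0.0753 in these genotypes. In the filtered edgeR fit it was -0.012, -0.0074 and -0.012. Depth limits Itgb8 and Itgae most, at 7 counts and 3 counts in fl/fl resting replicate 2. The replicate block changed no call of the 10 genes other than those given with their values.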
